A study of Homo sapiens with 16 samples.

Results

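This section describes 3455 very GC-rich promoter intervals of protein-coding genes among the 74404 intervals of a CUT&Tag count table. An interval belonged to the set if it lay on chromosomes 1 to 22 or X, within 1 kb of an annotated transcript start of a protein-coding gene, and had at least 70% G and C in the hg38 sequence. Intervals of the YAP1 gene were left out, and ZNF zinc finger genes were not counted as genes of an interval; 15 members near another gene also lay near a ZNF start. The choice used position and sequence only, and no count. It gave 2972 nearest genes, of which 424 had several intervals.

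CpG islands are stretches of GC-rich DNA that keep their CpG dinucleotides because they are mostly unmethylated in the germ line. They cover the start sites of most housekeeping genes and of many developmental regulators, and their GC boxes are bound by SP and KLF zinc finger factors. CTCF is a zinc finger protein that, with cohesin, of which RAD21 is a subunit, sets chromatin loops. H3K27ac marks active promoters and enhancers, and YAP1 is a coactivator of the Hippo pathway that reaches DNA mainly through TEAD factors.

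CUT&Tag cuts and tags DNA near an antibody-bound protein with a tethered Tn5 transposase. The 16 libraries came from HEK293, an embryonic kidney cell line, all of the eGFP-YAP genotype, and were made with antibodies to CTCF, to RAD21, to H3K27ac, or to GFP, which reads the tagged YAP protein (YAP1 below). For each target, 2 libraries had vehicle and 2 had 200 mM sorbitol for 1 h, a hyperosmotic stress. The library labels give vehicle an earlier time than sorbitol, which is labelled 1 h. Whether vehicle cells were collected at the same time as sorbitol cells is not given. An effect of time was not tested apart from that of sorbitol. The series' design describes 1 h without serum before sorbitol; whether vehicle cells were also starved, and whether the cells are 1 clone, is not given in the sources used here. The design asks whether the occupancy of chromatin-organising proteins changes with sorbitol. Nothing says that replicates are separate cultures, so p-values measure the spread between libraries, which may be technical.

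The libraries held between 1.19 and 8.84 M counts (M, 1e6). The median member had 139 to 159 counts in each H3K27ac library, 17 to 32 in each CTCF library, 7 to 19 in each RAD21 library and, for YAP1, 34 and 27 with vehicle against 10 and 6 with sorbitol. Mitochondrial, unplaced-sequence and YAP1 intervals, and any that took over 0.1% of a library, were left out of shares of counts, and 0 of them were members. CPM below are counts per 1e6 of a library's tested intervals after TMM scaling, a method that assumes most intervals do not change. Of the renal progenitor markers in HEK293, LHX1 (37.2 CPM) and PAX2 (36.0) lay above the H3K27ac level of the median promoter interval in vehicle, 23.3 CPM, while the PAX8 interval was at 0.403. Of 8 markers of other cell types, PTPRC, CD3E, ALB, APOA1 and KRT5 had no interval, and CDH1 (2.75 CPM), COL1A2 (1.38) and PDGFRA (7.35) had intervals below that median but above PAX8.

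The start site lay inside 2767 of the members (80.1%) and up to 1 kb away for 688. In the annotation, 2849 overlapped an untranslated region, 219 coding sequence without one, 78 another exon and 220 an intron, and 89 lay outside genes. Their median GC content was 72.9%, the highest was 89.0%, and 138 reached 80%. The median width was 860 bp. The less GC-rich promoters, 16542 intervals chosen by the same rule below 70%, were as wide (853 bp), whereas 879 equally GC-rich intervals farther than 1 kb from any start site were narrower (372 bp). The ratio of observed to expected CpG was 0.839 in the median member, 0.664 in the less GC-rich promoters and 0.686 in the GC-rich intervals away from start sites.

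Letters of transcription factor motifs were counted in 300 bases at the centre of each interval, on both strands. The GC box GGGCGG was present in 88.0% of members, 49.8% of less GC-rich promoters, 67.3% of GC-rich intervals away from start sites and 26.6% of all intervals. The TEAD letters GGAATG showed the opposite order between promoters, with 5.07% of members and 12.0% of less GC-rich promoters, and 14.5% of all intervals. The AP-1 letters TGACTCA or TGAGTCA were found in 1.25%, 3.67% and 6.05%, in that order. The CTCF consensus, with at most 1 mismatch anywhere in the interval, was found in 9.67% of members, 12.8% of less GC-rich promoters and 18.4% of all intervals. In the GC-rich intervals away from start sites the shares were 4.66% for TEAD, 1.71% for AP-1 and 9.56% for the CTCF consensus, close to those of members. The members were chosen by GC content, so the shares of all these letters depend in part on that choice.

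The following stretches show how these promoters read. Each is the 200 bases just upstream of the nearest annotated start, 5′ to 3′ on the gene's strand, from hg38, outside any annotated exon and inside the interval, with GC boxes on either strand in capitals. PTPRE (chr10:127906903-127907102, plus strand) and CEMIP (chr15:80779143-80779342, plus) lost CTCF signal with sorbitol.
PTPRE: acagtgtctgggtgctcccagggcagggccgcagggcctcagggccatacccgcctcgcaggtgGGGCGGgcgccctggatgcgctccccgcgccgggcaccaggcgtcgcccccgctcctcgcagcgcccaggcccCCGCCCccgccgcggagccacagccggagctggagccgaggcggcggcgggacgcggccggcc
CEMIP: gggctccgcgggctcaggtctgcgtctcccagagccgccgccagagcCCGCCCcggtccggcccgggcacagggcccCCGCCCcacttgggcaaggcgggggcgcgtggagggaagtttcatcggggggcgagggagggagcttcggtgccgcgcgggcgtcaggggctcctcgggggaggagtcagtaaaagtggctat

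JUND (chr19:18281623-18281822, minus strand), KLF6 (chr10:3785282-3785481, minus) and STMN1 (chr1:25906154-25906353, minus) are shown because they gained CTCF, RAD21 and YAP1 signal and lost H3K27ac.
JUND: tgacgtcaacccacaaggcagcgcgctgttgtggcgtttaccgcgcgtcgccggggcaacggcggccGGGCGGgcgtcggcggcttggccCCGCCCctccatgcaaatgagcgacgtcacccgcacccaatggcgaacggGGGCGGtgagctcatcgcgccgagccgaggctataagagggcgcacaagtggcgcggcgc
KLF6: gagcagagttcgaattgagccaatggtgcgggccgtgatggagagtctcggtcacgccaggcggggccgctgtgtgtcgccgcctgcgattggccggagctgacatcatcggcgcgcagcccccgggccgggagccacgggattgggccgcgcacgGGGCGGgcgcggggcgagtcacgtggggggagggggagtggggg
STMN1: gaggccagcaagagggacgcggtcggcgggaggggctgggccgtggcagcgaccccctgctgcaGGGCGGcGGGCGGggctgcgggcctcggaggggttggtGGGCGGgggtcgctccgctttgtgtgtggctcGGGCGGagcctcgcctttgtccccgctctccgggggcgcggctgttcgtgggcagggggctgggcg

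GPSM1 (chr9:136355330-136355529, plus strand) gained H3K27ac, and ANP32B (chr9:97984392-97984591, plus) was among the 2 members with the most H3K27ac in vehicle.
GPSM1: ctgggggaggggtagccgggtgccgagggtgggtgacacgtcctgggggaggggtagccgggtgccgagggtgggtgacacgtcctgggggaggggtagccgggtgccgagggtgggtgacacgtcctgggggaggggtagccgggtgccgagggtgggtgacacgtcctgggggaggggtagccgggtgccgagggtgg
ANP32B: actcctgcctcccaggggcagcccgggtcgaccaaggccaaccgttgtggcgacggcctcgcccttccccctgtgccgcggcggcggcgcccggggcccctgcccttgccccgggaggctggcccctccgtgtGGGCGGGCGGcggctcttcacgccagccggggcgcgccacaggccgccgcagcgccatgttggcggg

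The GPSM1 stretch is a tandem repeat with 14 CpG dinucleotides and no GC box, against 31 CpG and 3 GC boxes at JUND, 23 and 4 at STMN1, 25 and 1 at KLF6, 26 and 2 at PTPRE, 21 and 2 at CEMIP, and 25 and 2 overlapping boxes at ANP32B.

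CTCF signal at the very GC-rich promoters was higher with sorbitol. Members held 5.89% and 5.70% of the CTCF counts in the vehicle libraries and 8.53% and 8.59% in the sorbitol libraries, so the groups did not overlap. Of 2667 members with enough counts for a test, 1222 (45.8%) were called higher and 101 (3.79%) lower at a Benjamini-Hochberg adjusted p under 0.05 by edgeR's quasi-likelihood test. Over all 39261 intervals tested for CTCF, 19.5% were called higher and 20.7% lower, 40.2% in all. The median member had a log2 fold change of 0.83, against -0.06 over all tested intervals. Both medians depend on the scaling between libraries: the values above use TMM, and with scaling to total counts they were -0.15 and -1.04, with 328 members higher and 561 lower, so that the members' sign turned while they stayed above the other intervals.

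The CTCF change followed GC content. Among protein-coding promoters the median log2 fold change was -0.76 below 50% GC, 0.34 at 55 to 60%, 0.62 at 65 to 70%, 0.74 at 70 to 72%, 0.90 at 74 to 76%, 1.11 at 76 to 80% and 1.34 at 80% or more, where 41 of 71 tested members were higher and 0 lower. The limit of 70% marked no step, since the median was 0.66 at 69 to 70% and 0.69 at 70 to 71%. When a smooth trend of counts on GC content was taken out of each library, the median member moved to -0.19, with 281 members higher, all of them among the 1222, and 533 lower. That correction removes by construction any change that follows GC content, whatever its source.

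**Figure D1:**
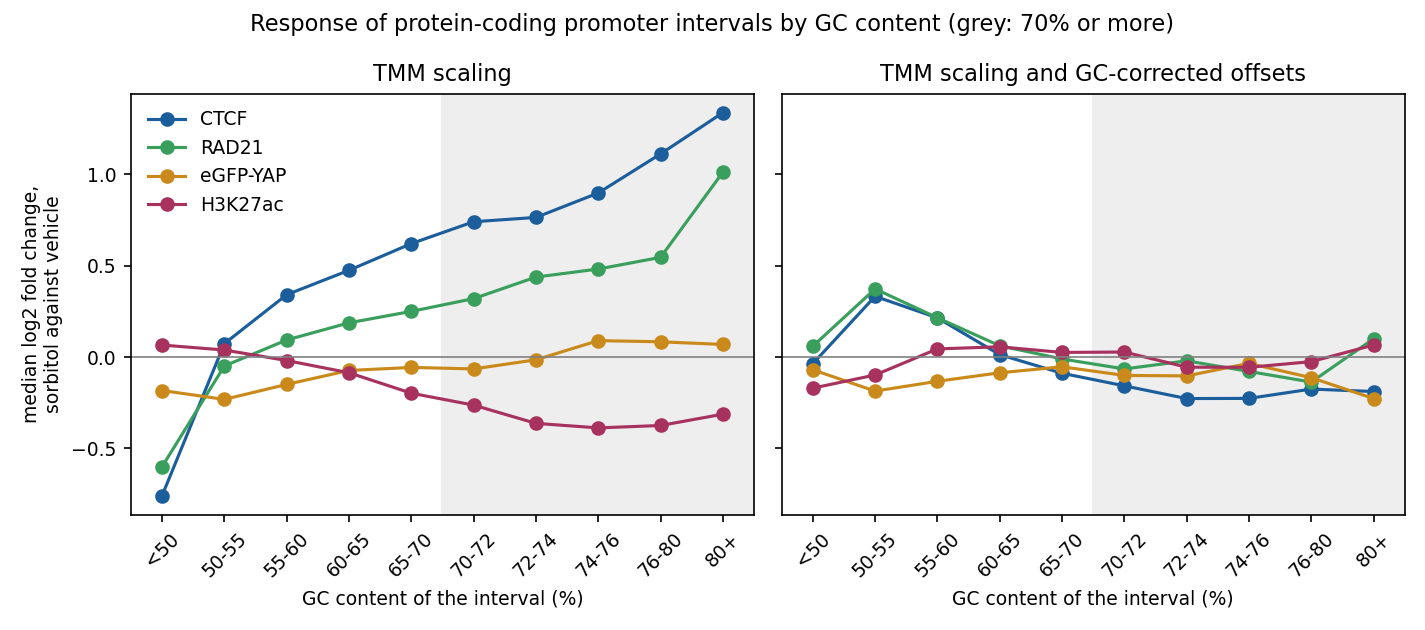
Median log2 fold change (sorbitol against vehicle) of protein-coding promoter intervals by GC content of the interval in percent, for the 4 targets (eGFP-YAP is the YAP1 target), with TMM scaling (left) and with GC-corrected offsets (right); grey marks 70% or more. With TMM scaling CTCF climbs from -0.76 to 1.34 and RAD21 from -0.60 to 1.01, whereas H3K27ac drops to -0.39 at 74 to 76%; with GC-corrected offsets every point at 70% or more lies between -0.23 and 0.10.

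Relative to the less GC-rich promoters, the difference in median log2 CPM was -0.20 and -0.22 in the CTCF vehicle libraries and 0.23 and 0.19 in the sorbitol libraries, each centred on the interval's mean over the 4 libraries. The change was 0.42 ± 0.02 (SD, n = 2 libraries a group). An exact permutation test of 2 against 2 libraries cannot go below p = 0.33, which is the value here (0.38 after Benjamini-Hochberg adjustment over the 8 class comparisons). Against GC-rich intervals away from start sites the CTCF change was -0.31 ± 0.02, so members rose less than those intervals, whose median log2 fold change was 1.16. That second difference was -0.04 when only intervals of at least 500 bp were kept, and the first was 0.31.

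The 3 rises that the naming rule put first by fitted CTCF fold change had no CTCF count in either vehicle library, so their order is not measured. PERM1, with a vehicle signal, went from 2.17 and 0.473 to 106 and 147 CPM (6.38), and that fold is above the lower bounds of all 3. AMN, which encodes amnionless, a partner of the vitamin B12 receptor cubilin, reached 63 and 74 counts after sorbitol in an interval overlapping coding sequence (chr14:102928810-102929410), at least 58.6-fold higher when vehicle is set to 3 counts per library. NEFH, the heavy neurofilament subunit, had 42 and 38 (at least 34.4-fold), and C1QTNF4, a secreted C1q-like protein, 36 and 35 (at least 30.5-fold). None of these 3 intervals had enough counts to be tested for the other targets. In all, 9 of the 2667 tested members were without a vehicle count, and setting them to their bound left the median at 0.83.

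CTCF falls were rarer, and the 3 largest by the naming rule were at intervals with little H3K27ac. PTPRE, a receptor tyrosine phosphatase gene, had 29.2 and 27.4 CPM with vehicle and 6.21 and 2.94 with sorbitol (log2 fold change -2.63, SE 0.34, edgeR adjusted p = 3.2e-06). At CEMIP, which encodes a hyaluronan-binding protein, CTCF was 34.8 and 36.9 CPM with vehicle and 6.21 and 8.83 with sorbitol (-2.24, SE 0.28, edgeR adjusted p = 1.6e-06). RAD21 at CEMIP was 20.8 and 18.6 against 9.86 and 1.14 CPM, and did not pass the test (edgeR adjusted p = 0.12). CLSTN2, a calsyntenin gene, went from 18.8 and 11.6 to 4.66 and 1.96 CPM of CTCF (-2.22, SE 0.45, edgeR adjusted p = 0.00058). Their H3K27ac levels with vehicle lay at 3.38 and 4.74 CPM for PTPRE, 2.90 and 2.13 for CEMIP and 5.64 and 3.43 for CLSTN2, and their changes did not pass the test.

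The 2 members with the most CTCF in vehicle moved in opposite directions. KMT2B, an H3K4 methyltransferase gene, had 120 and 122 CPM with vehicle and 70.4 and 71.1 with sorbitol (-0.77, SE 0.13, edgeR adjusted p = 0.00011; -1.65 with GC-corrected offsets). Its interval (chr19:35716684-35719090) overlaps the 5′ untranslated region and holds 2 matches to the CTCF consensus, 870 and 1079 bases upstream of the start. Such matches also lay in members that gained CTCF: of 319 tested members with a match, 127 were called higher and 22 lower. The KMT2B matches are printed because they are CTCF motifs within a member that lost signal. The matched 14 bases are in capitals (hg38, minus strand, 1 mismatch each, at chr19:35717093-35717112 and chr19:35716884-35716903).
KMT2B proximal match: gggCCACCAGGGGCCGCtac
KMT2B distal match: cgtCCAGGAGAGGGCACtcg

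FARP2, a guanine exchange factor gene, had 158 and 159 CPM of CTCF with vehicle and 263 and 248 with sorbitol (0.69, SE 0.12, edgeR adjusted p = 0.00012), but -0.29 with scaling to total counts and -0.36 with GC-corrected offsets. The same FARP2 interval was the highest member in vehicle for RAD21 (321 and 411 CPM) and for YAP1 (226 and 243), and it holds 9 GC boxes in its central 300 bases and no CTCF consensus.

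Members with a CTCF consensus responded differently from those without. Of 319 tested members with a match, 127 were called higher and 22 lower for CTCF, with a median log2 fold change of 0.51, against 1095 and 79 of 2348 and a median of 0.88 without a match. In the 4 libraries the difference in median log2 CPM between them was 0.20 and 0.16 with vehicle and -0.18 and -0.21 with sorbitol, a change of -0.38 ± 0.03 that was -0.40 with GC-corrected offsets. RAD21 showed the same order (-0.29 ± 0.04, and -0.32 with the correction). For YAP1 the difference was 0.01 ± 0.05 and for H3K27ac -0.03 ± 0.02. These groups of members were formed from sequence, and the change has no test beyond the spread between libraries.

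The number of GC boxes and the width of the interval also went with the response. Members with 5 or more GC boxes rose above those with 1 by 0.34 ± 0.07 for CTCF and 0.36 ± 0.10 for RAD21 (0.27 and 0.29 with GC-corrected offsets), while the difference for YAP1 was -0.01 ± 0.0047. CTCF was called higher at 60.9% of 553 tested members with 5 or more boxes, 39.6% of 518 with 1 and 46.4% of 293 with 0, so the share did not climb at every step. At the 864 narrowest members the CTCF change exceeded that at the 863 widest by 0.56 ± 0.03 (0.52 with the correction), with 375 of the narrowest and 841 of the widest having enough counts. A member with few counts could pass the filter through 1 group alone, so the tested narrowest members are a selected part. Without the filter the CTCF median of all members was 0.62 instead of 0.83. The width contrast was not computed without the filter.

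**Figure D2:**
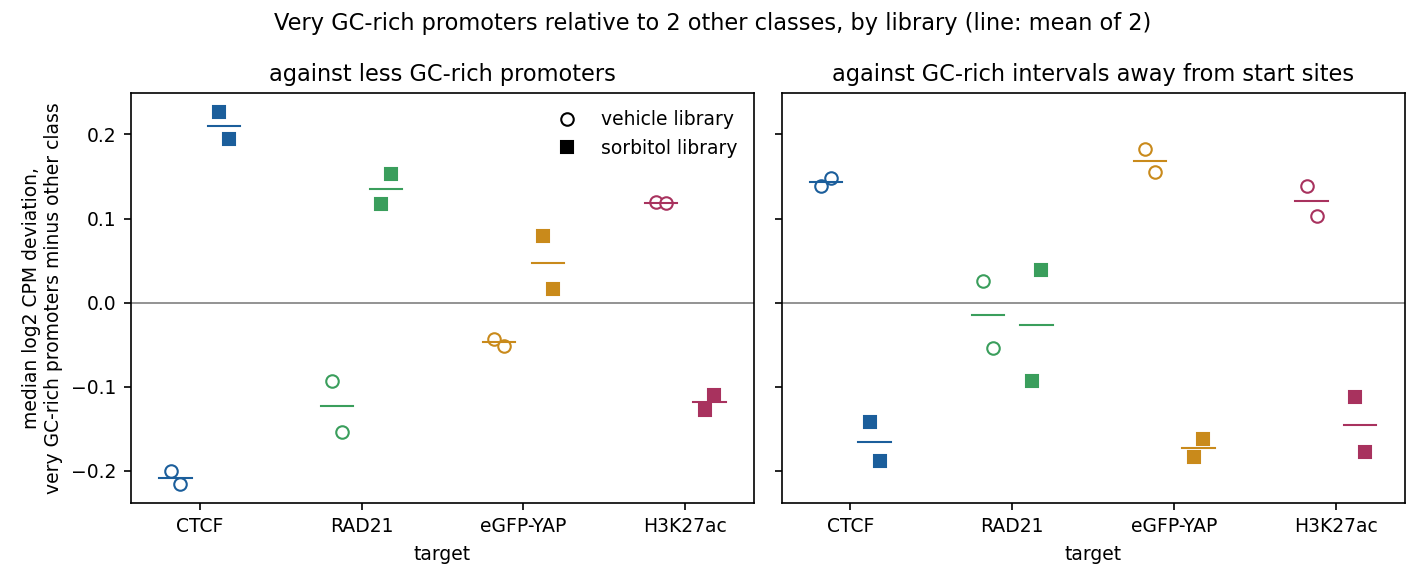
Difference in median log2 CPM between very GC-rich promoters and 2 other classes of intervals, for each library (open circle vehicle, filled square sorbitol; the line is the mean of 2 libraries). Against less GC-rich promoters (left) CTCF, RAD21 and YAP1 are higher with sorbitol and H3K27ac is lower; against GC-rich intervals away from start sites (right) CTCF, YAP1 and H3K27ac are lower and the RAD21 libraries overlap.

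RAD21 signal at members moved with that of CTCF, with fewer calls. Members held 7.87% and 7.44% of RAD21 counts with vehicle and 10.0% and 10.6% with sorbitol. Of 1753 tested members, 105 (5.99%) were called higher and 1 lower, where 3.34% and 1.45% of all 17011 tested intervals were (4.79% in all). At an unadjusted p under 0.05 there were 410 members in either direction, and DESeq2 called 62 higher and 0 lower. The median log2 fold change was 0.43, and -0.18 with scaling to total counts (24 higher, 22 lower), where the median of all tested intervals went from -0.01 to -0.60. With GC-corrected offsets the median was -0.06, with 33 members higher and 10 lower; with the replicate number as a block 59 were higher. Relative to less GC-rich promoters the change was 0.26 ± 0.04, and relative to GC-rich intervals away from start sites -0.01 ± 0.08, the only one of the 8 class comparisons in which the vehicle and sorbitol libraries overlapped (exact permutation p = 1.00).

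The 3 largest RAD21 rises by the naming rule were at TUBB4B, KCNQ1 and PERM1. The TUBB4B interval lay over coding sequence, 334 bp from the nearest start, and the PERM1 interval in an intron, 95 bp from it. The KCNQ1 interval held its start. RAD21 was called higher at 13.9% of 137 tested members with the start outside and at 5.32% of 1616 with it inside. These shares cover only members that passed the count filter. TUBB4B, a beta-tubulin gene, had 1.46 and 2.66 CPM with vehicle and 48.3 and 67.0 with sorbitol (4.90, SE 0.49, edgeR adjusted p = 0.00014). KCNQ1, a voltage-gated potassium channel gene, had 1.83 and 0 against 22.7 and 39.7 CPM (4.55, SE 0.70, edgeR adjusted p = 0.0026). PERM1, a regulator of muscle energy metabolism, had 2.92 and 5.31 against 62.1 and 94.3 CPM (4.35, SE 0.43, edgeR adjusted p = 0.00014). No member met the rule for a RAD21 fall.

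At both members with the most RAD21 in vehicle the test was missed. FARP2 went from 321 and 411 to 613 and 764 CPM (0.91, SE 0.27, edgeR adjusted p = 0.075), and TMEM87B, a Golgi membrane protein gene, from 121 and 135 to 295 and 154 (0.82, SE 0.31, edgeR adjusted p = 0.14). The FARP2 libraries did not overlap between groups, and the value passed with DESeq2 (adjusted p = 0.0058).

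A direct test of the response of RAD21 minus that of CTCF over their 8 libraries called 0 of 2862 members above and 23 below (0.127% and 0.704% of all tested intervals). The median was -0.35 at members and -0.24 over all tested intervals. At an unadjusted p under 0.05 there were 358 members in either direction, and DESeq2 called 2 above and 6 below.

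The direction of the YAP1 change at members depended on the measure. Members held 11.0% and 10.9% of YAP1 counts with vehicle and 10.1% and 9.05% with sorbitol, so the share was lower and the groups did not overlap. Of 2529 tested members, 74 (2.93%) were called higher and 30 (1.19%) lower, where 5.34% and 1.49% of all tested intervals were (6.83% in all), and the median log2 fold change was 0.00, against -0.04 over all. With scaling to total counts the medians were -1.42 and -1.46, with 6 members higher and 1700 lower. The change relative to less GC-rich promoters was 0.09 ± 0.03, and relative to GC-rich intervals away from start sites -0.34 ± 0.02. The sorbitol libraries of YAP1 were shallow: the difference between their log2 CPM values at members had an SD of 1.02, against 0.42 between the vehicle libraries. Without sorbitol replicate 1 there were 64 members higher and 102 lower, without sorbitol replicate 2 109 and 79, and without either vehicle library 37 and 1.

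YAP1 was called higher at 6.49% of 262 tested members with the start outside the interval and at 2.51% of 2267 with it inside. The intervals of the 3 largest rises, TUBB4B, JUND and SUN1, did not hold their nearest start, and that of SUN1 lay in an intron, 546 bp away. TUBB4B also had the largest YAP1 rise, from 4.70 and 2.57 to 66.1 and 55.9 CPM (4.03, SE 0.28, edgeR adjusted p = 3.1e-08). JUND, an AP-1 transcription factor gene, rose from 4.70 and 5.13 to 42.9 and 41.5 CPM (3.10, SE 0.28, edgeR adjusted p = 2.3e-07). Its interval (chr19:18280131-18280681) overlaps an untranslated region and lies 248 bp downstream of the nearest annotated start. It is also downstream of the start at 18281622, which the other JUND interval holds. Whether it covers coding sequence as well is not given here. SUN1, a protein of the inner nuclear membrane that links the lamina to the cytoskeleton, had 13 and 5 counts before and 39 and 7 after sorbitol (3.24, SE 0.61, edgeR adjusted p = 0.0016), and the call was lost without sorbitol replicate 1 (1.80, edgeR adjusted p = 0.27).

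The largest YAP1 falls were at DTNB, TBC1D14 and TBKBP1 and rested on few sorbitol counts. DTNB, a dystrobrevin gene, had 10.4 and 12.8 CPM with vehicle and 1.79 and 1.69 with sorbitol, from 3 and 2 counts (-2.70, SE 0.57, edgeR adjusted p = 0.0051; 0.096 without vehicle replicate 2). TBC1D14, an autophagy regulator, went from 10.2 and 11.3 to 4.17 and 1.69 CPM (-1.77, SE 0.52, edgeR adjusted p = 0.048) and passed neither with DESeq2 nor with a replicate block. TBKBP1, a TBK1-binding adaptor, went from 12.5 and 17.6 to 5.36 and 3.38 CPM (-1.72, SE 0.44, edgeR adjusted p = 0.022), which was lost without either vehicle library (0.05 and 0.42). The 2 highest members in vehicle, FARP2 (226 and 243 against 201 and 216 CPM) and TMEM87B (135 and 151 against 110 and 182), did not pass the test (edgeR adjusted p = 0.66 and 0.98).

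H3K27ac at the very GC-rich promoters was lower with sorbitol. Members held 12.1% of H3K27ac counts in both vehicle libraries and 10.4% and 10.5% in the sorbitol libraries. Of 3334 tested members, 1329 (39.9%) were called lower and 137 (4.11%) higher, where 14.5% and 8.59% of all tested intervals were (23.1% in all). The median log2 fold change was -0.33, against 0.02 over all tested intervals, and -0.18 against 0.17 with scaling to total counts (1021 lower, 274 higher). Among promoters the median went from 0.07 below 50% GC to -0.20 at 65 to 70% and -0.39 at 74 to 76%, and was -0.31 at 80% or more. At 69 to 70% and at 70 to 71% it was -0.24. With GC-corrected offsets the median was -0.01, with 660 lower, all among the 1329, and 517 higher.

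Relative to less GC-rich promoters the H3K27ac change was -0.24 ± 0.01, with library values of 0.12 and 0.12 in vehicle and -0.13 and -0.11 in sorbitol. Relative to GC-rich intervals away from start sites it was -0.27 ± 0.04, but -0.06 among intervals of at least 500 bp. Both had an exact permutation p of 0.33, the smallest possible. Ranked by vehicle level, 65.5% of the 864 members with the most H3K27ac were called lower, with a median of -0.43, and 7.94% of the 743 tested among the 864 with the least, with a median of -0.07. This ranking used the vehicle libraries that also enter the fold change, so the order is given as a description.

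The largest H3K27ac falls by the naming rule were at SOX12, CARS2 and INTS6. INTS6, a subunit of the Integrator complex, went from 126 and 125 to 25.6 and 26.6 CPM in an interval of 2289 bp around its start (chr13:51451519-51453807; -2.27, SE 0.09, edgeR adjusted p = 1.1e-20). SOX12, a SOXC-family transcription factor gene, went from 15.6 and 12.4 to 2.59 and 1.62 CPM (-2.71, SE 0.30, edgeR adjusted p = 5.2e-09) in a 283 bp interval over coding sequence. CARS2, the mitochondrial cysteinyl-tRNA synthetase gene, went from 7.58 and 7.85 to 1.40 and 1.37 CPM (-2.46, SE 0.38, edgeR adjusted p = 3.6e-06). At PXMP2, a peroxisomal membrane protein gene with the most H3K27ac of all members, the level went from 351 and 362 to 209 and 229 CPM (-0.71, SE 0.06, edgeR adjusted p = 5.1e-12). At ANP32B, a histone chaperone gene, it went from 292 and 333 to 221 and 239 (-0.44, SE 0.06, edgeR adjusted p = 7.3e-07; -0.13 and 0.14 with GC-corrected offsets).

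The 3 largest H3K27ac rises by the naming rule were at weakly marked intervals. DNAJC5, a synaptic vesicle co-chaperone gene, rose from 2.90 and 2.94 to 11.0 and 14.0 CPM (2.09, SE 0.29, edgeR adjusted p = 4.9e-07). GPSM1, a G-protein signalling modulator gene, rose from 2.26 and 2.62 to 6.70 and 11.1 (1.85, SE 0.34, edgeR adjusted p = 7e-05), in the interval with the tandem repeat printed above. TUBGCP2, a gamma-tubulin complex gene, rose from 3.22 and 4.74 to 10.6 and 10.1 (1.37, SE 0.28, edgeR adjusted p = 0.00031). CTCF at DNAJC5 and TUBGCP2 also rose (2.25 and 1.90, edgeR adjusted p = 0.0012 and 0.011), the second not with GC-corrected offsets (1.04, edgeR adjusted p = 0.17). CTCF at GPSM1 did not pass (1.27, edgeR adjusted p = 0.075).

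The H3K27ac response was compared with that of CTCF over their 8 libraries. It was below at 1200 of 3399 members and above at 129, where 9.3% and 12.3% of all tested intervals were, with a median of -0.78 at members and 0.27 over all tested intervals. With GC-corrected offsets the order turned, to 223 below and 936 above. With scaling to total counts there were 562 below and 498 above.

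Of the 2600 members tested for both CTCF and H3K27ac, 638 were called higher for CTCF and lower for H3K27ac. They made up 54.6% of those higher for CTCF and 54.3% of those lower for H3K27ac, while 45.2% of the 2600 were lower for H3K27ac. Another 37 were higher for both, 29 lower for both and 7 lower for CTCF and higher for H3K27ac. Across these members the 2 fold changes had a Pearson r of -0.10, a description over intervals that share libraries. Over all 30189 intervals tested for both it was -0.11. The CTCF and RAD21 fold changes had a Pearson r of 0.59 over 1739 members and 0.66 over all 16640 intervals tested for both. At 95 members both were higher, which is 91.3% of those higher for RAD21 and 10.5% of those higher for CTCF. Of the 1739, 51.9% were higher for CTCF and 5.98% for RAD21.

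A group of 35 members at 34 genes was called higher for CTCF, RAD21 and YAP1, out of 1710 tested for all 3. Over all tested intervals 19.5% were higher for CTCF, 3.34% for RAD21 and 5.34% for YAP1. The joint share over all intervals was not counted, so the group is not shown to be particular to these promoters. The 35 were picked after their values were seen, so they carry no test as a group. H3K27ac, which did not enter the choice, was called lower at 28 of the 35 and higher at 2, where 53.7% of the 1748 members tested for both RAD21 and H3K27ac were lower; its median log2 fold change in the group was -1.15. Of the 35, 29 overlapped an untranslated region, 25 held their start site and 3 held a CTCF consensus. All 35 had CTCF, RAD21 and YAP1 levels in both sorbitol libraries above both vehicle libraries, which the choice largely fixes.

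Among the 35 were, besides TUBB4B, ACTB and ACTG1, the cytoplasmic actins, STMN1, which destabilises microtubules, FSCN1, which bundles actin, and BAIAP2, an adaptor that acts on actin. These names were picked by function from the 35. No list of cytoskeleton genes was among those compared, and their share among tested members was not counted. ACTG1 had 11.6 and 5.44 CPM of CTCF with vehicle and 116 and 135 with sorbitol, RAD21 of 10.6 and 16.8 against 80.8 and 96.5, and YAP1 of 15.9 and 16.0 against 66.7 and 55.01. Its H3K27ac went from 93.5 and 99.2 to 36.2 and 34.05 CPM (-1.45, SE 0.09, edgeR adjusted p = 5.5e-15). At ACTB the CTCF level was 57.9 and 52.7 against 259 and 240 CPM and H3K27ac 117 and 131 against 41.7 and 40.3 (-1.59). STMN1, whose upstream stretch is printed above, had CTCF of 8.23 and 13.5 against 81.7 and 72.1 and H3K27ac of 55.3 and 51.7 against 23.9 and 24.2 CPM. ACTB, ACTG1, TUBB4B, PTMA, RRM2 and STMN1 have close copies or pseudogenes in the genome, and how the authors counted reads that match several places is not given in the sources used here, so their levels are uncertain.

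Transcription factor genes were also among the 35. JUND had 2 intervals, and at the one over its start (chr19:18281097-18282609) CTCF was 24.2 and 26.97 CPM with vehicle and 199 and 180 with sorbitol, YAP1 51.9 and 51.5 against 112 and 141, and H3K27ac 63.2 and 74.5 against 18.4 and 19.4 (-1.87, SE 0.12, edgeR adjusted p = 4.1e-15). KLF6 had CTCF of 10.9 and 4.02 against 61.0 and 67.2 CPM (3.01, SE 0.27, edgeR adjusted p = 1.7e-08), YAP1 of 22.2 and 23.5 against 59.6 and 64.3, and H3K27ac of 109 and 106 against 48.1 and 46.3. ERF, an ETS repressor, BBC3, a pro-apoptotic BCL2-family gene, and ERRFI1, a feedback inhibitor of EGFR, showed the same order, with H3K27ac log2 fold changes of -1.43, -2.07 and -1.09. At INTS6, whose H3K27ac fall is given above, CTCF rose from 11.3 and 12.1 to 101 and 90.8 and YAP1 from 25.9 and 30.2 to 105 and 109 CPM.

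After GC correction 13 of the 35 were still higher for CTCF, RAD21 and YAP1, and 24 were still lower for H3K27ac. RAD21 was higher at 15 of 35 after GC correction, 20 with DESeq2, 24 with a replicate block and 11 with scaling to total counts. YAP1 was higher at 3 of the 35 with scaling to total counts and lower at 2.

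**Figure D3:**
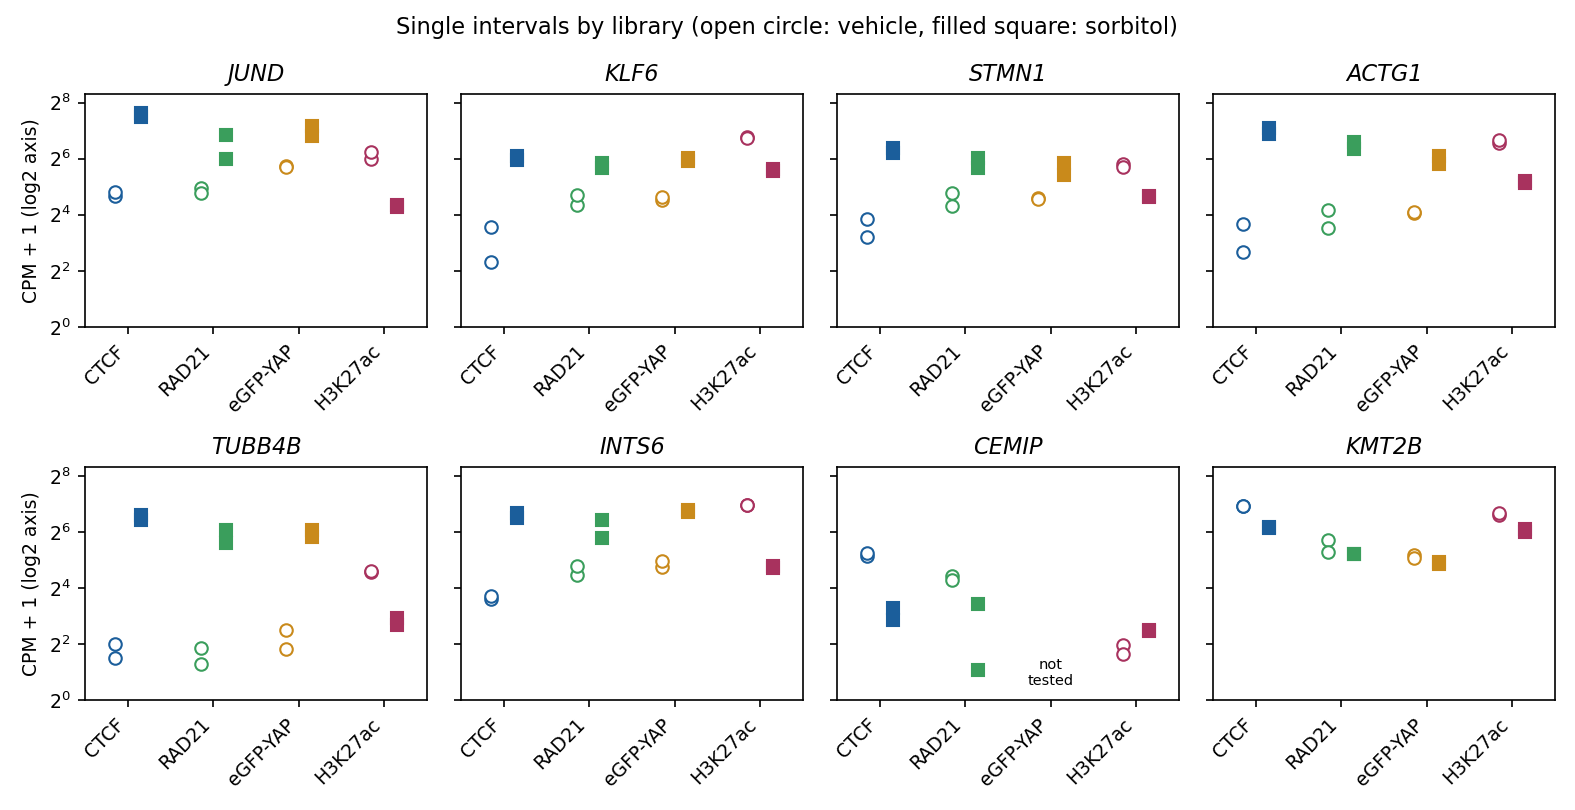
CPM plus 1 in each library at 8 members, on a log2 axis (open circle vehicle, filled square sorbitol; the JUND panel is the interval over the start site). At JUND, KLF6, STMN1, ACTG1, TUBB4B and INTS6 the CTCF, RAD21 and YAP1 values are higher with sorbitol and those of H3K27ac lower, whereas CTCF is lower with sorbitol at CEMIP, which was not tested for YAP1, and at KMT2B.

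Lists of genes by function were compared with the members as a whole, for which the CTCF median was 0.83 and the H3K27ac median -0.33. Of all tested members 45.8% were higher and 3.79% lower for CTCF, and 4.11% were higher and 39.9% lower for H3K27ac. For YAP1 2.93% were higher and 1.19% lower. The counts of each list are to be read against these shares, and no list was tested against them. Of the immediate early and stress genes, 21 had 29 intervals. CTCF was higher at 17 of 25 tested and lower at 0 (median 1.45, and 0.48 with GC-corrected offsets). YAP1 was higher at 4 of 23, among them both JUND intervals, and lower at 0 (median 0.41), beside 2.93% higher among all tested members. With GC-corrected offsets it was higher at 2. H3K27ac was lower at 15 of 29 and higher at 0 (median -0.69). JUND had the largest change for each target, with CTCF from 4.66 and 6.15 to 86.9 and 88.8 CPM and H3K27ac from 22.2 and 27.8 to 6.16 and 7.33 in its downstream interval. NR4A1, an orphan nuclear receptor gene, had the smallest called CTCF rise (0.63), which was -0.36 with scaling to total counts and -0.26 with GC-corrected offsets.

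For the KLF, SP and EGR zinc finger factors, of which those of the SP and KLF families bind GC boxes, 13 genes had 15 intervals. CTCF was higher at 7 of 13 tested, near the 45.8% of all members, and lower at 0 (median 0.97), and H3K27ac was lower at 10 of 15 and higher at 0 (median -0.71). The H3K27ac falls ranged from -0.54 at KLF3 to -1.61 at KLF13, where the level went from 47.7 and 47.6 to 16.8 and 14.2 CPM.

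Homeobox and other developmental transcription factors had 64 intervals at 50 genes. CTCF was higher at 23 of 45 tested and lower at 1 (median 1.24), and H3K27ac was higher at 2 and lower at 23 of 62 (median -0.39), both near the 45.8% and 39.9% of all members. FOXL2 had no CTCF count with vehicle (at least 12.4-fold higher), and FOXA3 was the one fall (-1.18, SE 0.36, edgeR adjusted p = 0.013), lost without vehicle replicate 2 or sorbitol replicate 2. POU3F1, a neural POU factor gene, had 1.24 and 2.60 CPM of CTCF with vehicle and 57.4 and 60.8 with sorbitol. PAX8, a renal lineage gene, rose for H3K27ac from 0.806 and 0 to 2.16 and 1.62 CPM (edgeR adjusted p = 0.032), a call lost without vehicle replicate 2 or either sorbitol library.

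Genes of osmolyte and ion transport, the ones most tied to cell volume, had 37 intervals at 29 genes. CTCF was higher at 12 and lower at 2 of 27 tested (median 0.82) and H3K27ac was higher at 1 and lower at 13 of 36 (median -0.28), close to the medians of all members. ATP1B2, a subunit of the sodium pump, had 1.71 and 0.710 CPM of CTCF with vehicle and 48.6 and 51.5 with sorbitol (5.23, SE 0.33, edgeR adjusted p = 2.5e-11), and RAD21 of 3.65 and 2.66 against 28.6 and 28.4. TRPV4, an osmotically gated cation channel gene, had the one H3K27ac rise (1.00, edgeR adjusted p = 0.044), which did not pass with DESeq2 or without vehicle replicate 1 or either sorbitol library.

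Hippo pathway and YAP target genes had 15 intervals at 12 genes, and 0 of the 13 tested for YAP1 were called (median -0.06), where 2.93% of all tested members were higher and 1.19% lower. CTCF was higher at 3 of 11 and lower at 0, and H3K27ac was lower at 8 of 15 and higher at 1. TEAD3, a DNA-binding partner of YAP, fell for H3K27ac from 73.0 and 74.7 to 39.4 and 43.1 CPM (-0.84), and WWC1, an upstream regulator also called KIBRA, rose from 68.3 and 72.6 to 83.8 and 88.1 (0.29, edgeR adjusted p = 0.011; lost without vehicle replicate 1 or sorbitol replicate 2).

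Of the Notch, Wnt, Hedgehog and TGF-beta signalling genes, 58 had 69 intervals. CTCF was higher at 28 and lower at 1 of 51, and H3K27ac was higher at 2 and lower at 33 of 69 (median -0.56), beside 45.8% higher for CTCF and 39.9% lower for H3K27ac among all members. NRARP, a feedback inhibitor of Notch, fell most for H3K27ac, from 14.0 and 19.3 to 3.56 and 4.47 CPM (-2.05). SKI, a repressor of TGF-beta signalling, was the one YAP1 call of 49 tested, a fall (-1.17, edgeR adjusted p = 0.016; lost without either vehicle library). RAD21 rose at LFNG, the lunatic fringe gene (2.08, edgeR adjusted p = 0.029), and HES4, a Notch target gene (1.85, edgeR adjusted p = 0.02), and neither passed with GC-corrected offsets or scaling to total counts.

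Chromatin and Polycomb regulators had 52 intervals at 36 genes, with CTCF higher at 24 and lower at 2 of 42 (median 1.04) and H3K27ac higher at 3 and lower at 33 of 52 (median -0.48). KDM4B, a histone demethylase gene, rose for CTCF from 12.9 and 8.99 to 92.1 and 70.7 CPM (2.86, SE 0.21, edgeR adjusted p = 2e-10), and CBX8, a Polycomb subunit gene, fell for H3K27ac from 7.41 and 8.01 to 1.62 and 0.870 (-2.59). ARID1B, a SWI/SNF subunit gene, was higher for YAP1 (2.51, edgeR adjusted p = 0.0011; 0.059 with scaling to total counts).

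Ribosomal protein and oxidative phosphorylation genes gave 6 names at 9 intervals, among them the kinase-like gene RPS6KL1 and the assembly factor gene NDUFAF6, caught by their prefix. H3K27ac was lower at 3 and higher at 1 of 9 (median 0.04), and the rise was at the interval shared by RPL6 and PTPN11, from 68.2 and 66.4 to 98.5 and 98.3 CPM (0.55, edgeR adjusted p = 2e-06). The median of the CTCF changes in every list moved to between -0.68 and 0.48 with GC-corrected offsets, and with scaling to total counts the sign of weak CTCF rises turned as for NR4A1.

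**Figure D4:**
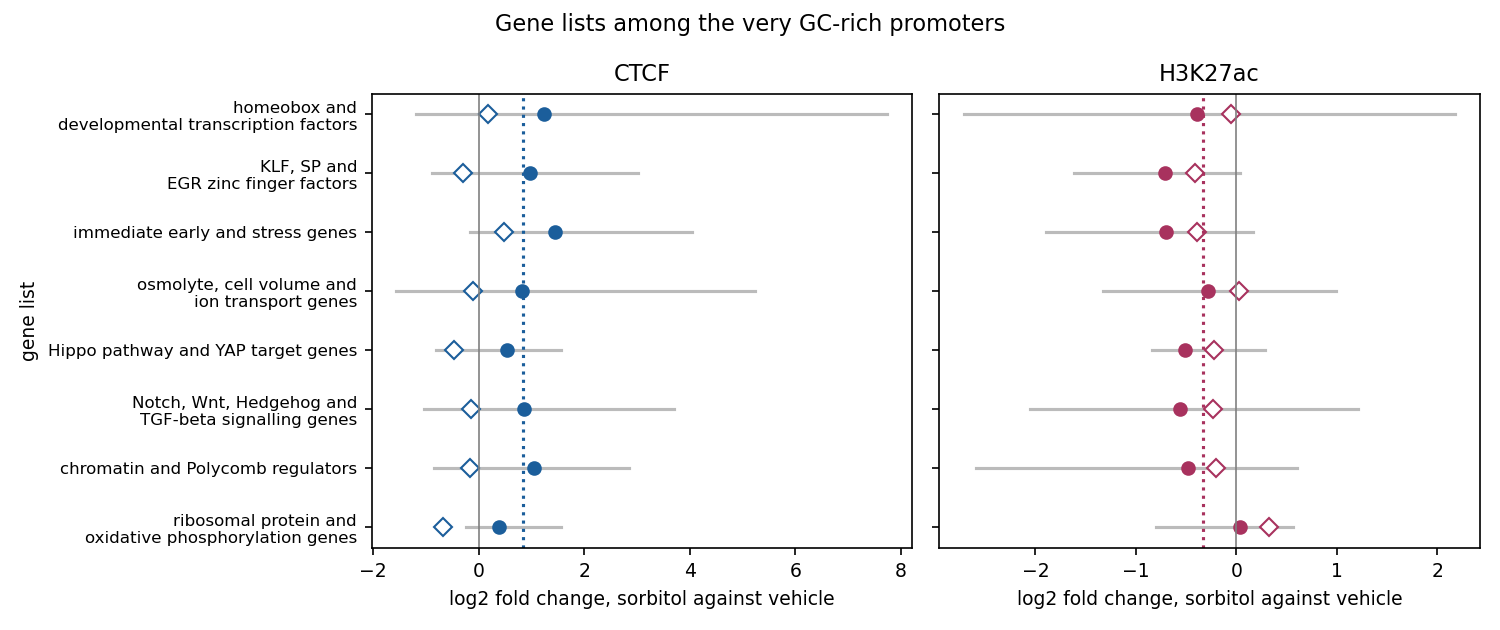
Log2 fold change of CTCF (left) and H3K27ac (right) at members of 8 gene lists. Dots are medians, open diamonds medians with GC-corrected offsets, grey lines the range, and the dotted line the median of all members; ranges include fitted values for intervals with no vehicle count. Immediate early and stress genes have the highest CTCF median (1.45), and the KLF, SP and EGR factors the lowest H3K27ac median (-0.71).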

How the data were processed

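The deposited table holds counts per shared interval, 1 column a library per the file headers; the values are whole numbers whose totals differ between libraries, and were taken as raw. Per the submitters' processing notes the tools include Trim Galore, FastQC, BWA 0.7.17, SAMtools, Picard, bedtools 2.31.1 and MACS2 2.2.6, with hg38; their roles are not given in the sources used here. Interval starts, 0-based in the table, were shifted by 1 for printing; GENCODE release 44 gave genes. Groups came from target, treatment and replicate in the labels.

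Each target's 4 libraries were fitted with edgeR 4.0.16 in R 4.3.3 (robust quasi-likelihood test, TMM scaling, filterByExpr at 10 counts), with adjustment over all tested intervals; CPM is per 1e6 on TMM-scaled sizes. Differences between targets were tested as interactions over 8 libraries. DESeq2 1.42.0, other scalings, no filter, GC-corrected offsets (lowess, span 0.3), a replicate block and leaving out each library were alternatives. The edgeR step was tested on simulated data, where it missed most of the changes put in for every target. A member that was not called is therefore not shown to be unchanged. Folds against groups without counts use a floor of 3 counts per library, which covers counting error only, since PCR copies are not independent molecules.

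For each target the text names the 3 largest rises and 3 largest falls among called members with a mean CPM above the median and no overlap between groups, the 2 highest members in vehicle, and the largest and smallest called changes in gene lists; the members higher for 3 targets were added later. Members, lists and rules were chosen with earlier results of these data known. A few items these rules select are not reported here.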

Additional observations from a re-analysis of the deposited data

Results flagged for a closer look

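The difference in response to sorbitol between targets at the same members was tested as an interaction. For RAD21 minus CTCF it was above at 0 of 2862 members and below at 23 (edgeR, adjusted p under 0.05), a share near the 0.704% below over all tested intervals, and DESeq2 gave 2 above and 6 below. For H3K27ac minus CTCF it was above at 129 and below at 1200 of 3399 members, and the order turned with GC-corrected offsets. Counts and medians are those given with each target.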

How the results depend on the processing

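Members with few counts could not be tested, which limits RAD21 and YAP1 most (1702 and 926 of the 3455 members). Class changes and counts of calls are given with the alternatives that moved them, single members only where their sign turned, and the cause was not tested, except that GC-corrected offsets by construction remove what follows GC content. Where leaving out 1 library leaves 1 in a group, that library is assumed to vary like the others. The width limit and leaving out members near ZNF genes were chosen after seeing the data, and the latter, like DESeq2 size factors in edgeR, moved no count of calls by over 1.5 times. For the CTCF change from less GC-rich promoters, 0.42 became 0.37 with no filter, -0.23 with GC-corrected offsets, 0.65 with a GC limit of 0.75, 0.33 with starts inside, 0.31 with widths of at least 500 bp, 0.38 with summed counts, and 0.40 to 0.43 leaving out each library. For the CTCF change from GC-rich intervals away from start sites, -0.31 became -0.80 with a GC limit of 0.75, -0.037 with widths of at least 500 bp, -0.53 with summed counts, and -0.31 to -0.29 leaving out each library. For the RAD21 change from less GC-rich promoters, 0.26 became -0.10 with GC-corrected offsets, 0.43 with a GC limit of 0.75, and 0.23 to 0.28 leaving out each library. For the RAD21 change from GC-rich intervals away from start sites, -0.01 became 0.014 with no filter, 0.012 with GC-corrected offsets, 0.15 with widths of at least 500 bp, -0.17 with summed counts, and -0.079 to 0.0088 leaving out each library. For the YAP1 change from less GC-rich promoters, 0.09 became 0.0058 with GC-corrected offsets, 0.20 with a GC limit of 0.75, 0.044 with summed counts, and 0.06 to 0.11 leaving out each library. For the YAP1 change from GC-rich intervals away from start sites, -0.34 became -0.46 with no filter, -0.39 with GC-corrected offsets, -0.29 with a GC limit of 0.75, -0.29 with widths of at least 500 bp, -0.48 with summed counts, and -0.36 to -0.34 leaving out each library. For the H3K27ac change from less GC-rich promoters, -0.24 became -0.023 with GC-corrected offsets, -0.29 with a GC limit of 0.75, and -0.25 to -0.23 leaving out each library. For the H3K27ac change from GC-rich intervals away from start sites, -0.27 became -0.31 with no filter, -0.34 with a GC limit of 0.75, -0.060 with widths of at least 500 bp, -0.0048 with summed counts, and -0.28 to -0.22 leaving out each library. Members called higher for CTCF went from 1222 to 328 with total scaling, 281 with GC-corrected offsets, 232 with a replicate block with GC correction, and 850 to 1140 leaving out each library. Members called lower for CTCF went from 101 to 62 with DESeq2, 561 with total scaling, 175 with totals without dominant intervals, 154 with no filter, 533 with GC-corrected offsets, 446 with a replicate block with GC correction, and 49 to 106 leaving out each library. Members called higher for RAD21 went from 105 to 62 with DESeq2, 24 with total scaling, 33 with GC-corrected offsets, 59 with a replicate block, 37 with a replicate block with GC correction, and 116 to 195 leaving out each library. Members called lower for RAD21 went from 1 to 0 with DESeq2, 22 with total scaling, 3 with no filter, 10 with GC-corrected offsets, 14 with a replicate block with GC correction, and 1 to 15 leaving out each library. Members called higher for YAP1 went from 74 to 6 with total scaling, 45 with totals without dominant intervals, 48 with no filter, and 37 to 109 leaving out each library. Members called lower for YAP1 went from 30 to 17 with DESeq2, 1700 with total scaling, 81 with totals without dominant intervals, 146 with no filter, and 1 to 102 leaving out each library. Members called higher for H3K27ac went from 137 to 67 with DESeq2, 274 with total scaling, 271 with totals without dominant intervals, 517 with GC-corrected offsets, 527 with a replicate block with GC correction, and 81 to 104 leaving out each library. Members called lower for H3K27ac went from 1329 to 660 with GC-corrected offsets, 666 with a replicate block with GC correction, and 1052 to 1170 leaving out each library. Members above in the RAD21 minus CTCF response went from 0 to 2 with total scaling, 6 with no filter, 6 with GC-corrected offsets, 1 with a replicate block, 2 with DESeq2, and 0 to 7 leaving out each library. Members below in the RAD21 minus CTCF response went from 23 to 9 with total scaling, 13 with GC-corrected offsets, 6 with DESeq2, and 13 to 36 leaving out each library. Members above in the H3K27ac minus CTCF response went from 129 to 498 with total scaling, 936 with GC-corrected offsets, and 64 to 123 leaving out each library. Members below in the H3K27ac minus CTCF response went from 1200 to 562 with total scaling, 223 with GC-corrected offsets, and 1026 to 1267 leaving out each library. The counts that moved most without 1 library were those of YAP1, given with its results, of RAD21 (195 higher and 15 lower without sorbitol replicate 1, 134 and 8 without sorbitol replicate 2) and of CTCF (49 lower without vehicle replicate 1, 60 without vehicle replicate 2), and for H3K27ac 81 were higher without sorbitol replicate 2.

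Signs turned at a few named members. With scaling to total counts the log2 fold change was -0.29 for CTCF at FARP2, -0.35 at KLF10, -0.36 at NR4A1 and -0.20 at TEAD3, and for YAP1 -1.45 at TMEM87B, -0.14 at FOXD1, -0.64 at DNAJB1 and -0.36 at EZH2. With GC-corrected offsets CTCF was -0.36 at FARP2, -0.32 at KLF10, -0.26 at NR4A1 and -0.41 at TEAD3, YAP1 was -0.056 at TMEM87B and H3K27ac was 0.0025 at TRIB1. YAP1 at TMEM87B, 0.02 and not called, was also -0.40 with no filter, -0.0081 with a replicate block, -0.05 without vehicle replicate 1 and -0.44 without sorbitol replicate 2. Over all named members and alternatives, 566 values kept their sign and call, 108 lost the call, 9 gained one and 18 turned sign.

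No pairing of libraries by replicate number was seen: the deviations of same-numbered libraries correlated at -0.009 (CTCF), -0.005 (RAD21), 0.005 (YAP1) and -0.005 (H3K27ac). At intervals with few counts these deviations hold much counting error, so the check could miss a pairing. The replicate block alone gave 1116 CTCF members higher and 87 lower. RAD21 then had 59 higher and 1 lower. YAP1 had 61 higher against 21 lower, and H3K27ac 146 against 1346.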
